A study of Mus musculus with 12 samples.

Results

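Cdk5, Cdk5r1, Ehmt2, Sirt1, Nfkb1 and Calb1 were examined as a group of genes that earlier work, in hippocampus or in nucleus accumbens (NAc), named as targets of ΔFosB. The 6 genes were taken by symbol from those reports, not by a threshold on these counts, and all 6 were found among the 37310 genes counted. They were followed in ventral hippocampus (vHPC) of C57BL/6 mice in 4 groups of 3 libraries: WT TRAP, FosB KO TRAP, WT input and FosB KO input. All mice carried a Cre-dependent GFP-L10a, a ribosomal protein with a fluorescent tag, and all received retrograde HSV-Cre in NAc 3 weeks before collection. KO mice were in addition floxed for FosB (FosB fl/fl, loss of exons 2 and 3 where Cre is present), and WT mice were littermates without floxed FosB. Ribosomes pulled down by the tag gave the TRAP libraries of NAc-projecting (vHPC-NAc) neurons, and the whole punched tissue of the same pools gave the input libraries. A library came from a pool of 3 mice by the labels and of 3 to 4 by the methods. The labels give no age and name no stress for these samples. By the methods, Cre came only from the virus in NAc, and NAc-projecting neurons of regions other than vHPC could also lose FosB. In bulk samples such as these, fewer cells of a kind and less RNA per cell cannot be told apart.

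ΔFosB is a stable, truncated product of the FosB gene that builds up in neurons with repeated activity. It pairs with Jun proteins to form AP-1, which binds a short palindromic DNA motif and can raise or lower the transcription of its targets. Cdk5 is a kinase of postmitotic neurons that is active only when bound to an activator, and Cdk5r1 encodes one such activator, p35. Ehmt2 encodes G9a, a methyltransferase that places a repressive mark on histone H3 at lysine 9 (H3K9). Sirt1 is a deacetylase that depends on NAD, Nfkb1 encodes the p105 precursor of the p50 subunit of NF-κB, and Calb1 encodes calbindin, a calcium-buffering protein of dentate granule cells, of some CA1 pyramidal cells and of some interneurons.

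On mm9, Cdk5 (ENSMUSG00000028969.6) lies on the minus strand at chr5:23924068-23929348, and Cdk5r1 (ENSMUSG00000048895.11), a gene of a single exon, on the plus strand at chr11:80290548-80294681. Ehmt2 (ENSMUSG00000013787.9) lies on the plus strand at chr17:35035414-35050997 and Sirt1 (ENSMUSG00000020063.9) on the minus strand at chr10:62781753-62844452. Nfkb1 (ENSMUSG00000028163.8) lies on the minus strand at chr3:135247619-135354511 and Calb1 (ENSMUSG00000028222.2) on the plus strand at chr4:15808411-15835211. All 6 are protein-coding. Their annotated exons are free of other genes, except that 65 bases of Sirt1 exons, 1.22%, are shared with Gm16145 on the opposite strand, which had 0 reads in all 12 libraries. Of the 75-base stretches of their exons, 2.32% in Sirt1 and 0.132% in Ehmt2 have another place in the genome at up to 2 mismatches, and none has in the other 4 genes.

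Because AP-1 is the DNA-binding form of ΔFosB, the 250 bases before the start site were read for the members with an entry in the RefSeq promoter sequences (build GRCm38.p6), which were Ehmt2, with 2 start sites, and Sirt1. They are printed 5′ to 3′ on the strand of the gene with CpG dinucleotides in capitals, for Ehmt2 at the start site with more of them (chr17:34898720-34898969, plus strand) and for Sirt1 at chr10:63339036-63339285, minus strand.
Ehmt2: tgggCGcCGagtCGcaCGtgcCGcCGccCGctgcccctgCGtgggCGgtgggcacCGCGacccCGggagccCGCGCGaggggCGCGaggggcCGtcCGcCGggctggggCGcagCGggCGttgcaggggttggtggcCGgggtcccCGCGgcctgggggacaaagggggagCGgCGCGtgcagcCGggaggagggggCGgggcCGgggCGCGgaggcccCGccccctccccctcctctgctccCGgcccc
Sirt1: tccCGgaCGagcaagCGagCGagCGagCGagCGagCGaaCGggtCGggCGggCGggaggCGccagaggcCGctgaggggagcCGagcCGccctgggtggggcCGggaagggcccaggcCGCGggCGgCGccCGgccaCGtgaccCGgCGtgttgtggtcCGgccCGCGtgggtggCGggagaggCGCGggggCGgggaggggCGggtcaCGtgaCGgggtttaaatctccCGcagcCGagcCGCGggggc
The Ehmt2 window held 36 CpG at 84.0% G and C, more CpG than 97.4% of the 32851 promoter windows of the same length. The Sirt1 window held 39 CpG at 79.2% G and C, more than 98.4% of the windows. The other Ehmt2 start site, at chr17:34898224-34898473, had 18 CpG. Neither the AP-1 motif TGANTCA nor the cAMP response element TGACGTCA, searched on both strands, was matched in any of the 3 windows, while 6.75% of all windows held the first and 1.55% the second. No match says only that these letters are not in these windows.

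The libraries held 3416030 to 5614089 counts on genes. Levels are given as CPM, the counts of a gene relative to those of its library, after TMM scaling over the 12 libraries. A count of 3 corresponded to 0.534 to 0.878 CPM before scaling, and this covers counting error only. Fosb itself was read at 45.2, 32.0 and 40.1 CPM in WT TRAP and at 29.3, 18.8 and 21.5 in KO TRAP, and at 22.2 to 30.2 in WT input against 14.8 to 17.0 in KO input, so all KO libraries lay below all WT libraries of the same kind. The Fosb ratio of KO to WT on the log2 scale was -0.76 ± 0.21 (SE; edgeR, unadjusted p = 0.00126, adjusted p = 0.337) in TRAP and -0.68 ± 0.22 (unadjusted p = 0.00557, adjusted p = 0.9996) in input. The difference of the Fosb ratios between TRAP and input was -0.08 ± 0.30 (unadjusted p = 0.791, adjusted p = 0.99992), so the Fosb ratio was not shown to differ between the tagged neurons and the whole tissue. The counts cover the whole gene, the exons outside the floxed part included. The tissue and cell labels were checked with marker lists over both genotypes: all 8 astrocyte, all 8 oligodendrocyte and all 8 microglia markers were lower in TRAP than in input, 6 of 8 markers of glutamate neurons were higher and 2 did not pass, and 6 of 8 markers of GABA neurons were lower and 2 did not pass. Of 6 endothelial markers, 2 had enough reads to be tested and 1 of these was lower in TRAP. One library stood apart in GABA neuron markers, whose summed level was 643 CPM in TRAP of KO pool 2 and 198 to 445 CPM in the other 5 TRAP libraries. Between KO and WT TRAP, 7 GABA neuron markers were tested, of which 4 had ratios above 0 and 3 below, and of 8 astrocyte markers 3 were above and 5 below, and none of either list passed. In these lists, Npy, a neuropeptide of interneurons (-1.35, unadjusted p = 4.83e-05, adjusted p = 0.0618), and the astrocyte gene Aldh1l1 (-1.57, unadjusted p = 0.00553, adjusted p = 0.576) had unadjusted p under 0.05 in TRAP, by edgeR. The myelin gene Mobp had one in input (-0.43, unadjusted p = 0.0264, adjusted p = 0.9996), where 2 of 8 oligodendrocyte markers had ratios above 0 and 6 below, and none passed.

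The 6 genes fell into 4 of higher and 2 of lower level. Per kilobase of exon, Cdk5r1 stood highest in all 4 groups, from 83.3 ± 3.7 CPM per kb (SD, n = 3) in KO input to 107 ± 10 in WT TRAP, which placed it above 95.8% to 96.2% of the genes tested. Calb1 and Cdk5 came next and overlapped in WT TRAP (61.6 ± 8.7 and 59.8 ± 5.3 CPM per kb), in KO TRAP (58.2 ± 7.3 and 58.8 ± 0.57) and in WT input (42.6 ± 2.1 and 45.2 ± 2.5). In KO input, Calb1 stood at 51.9 ± 4.7 CPM per kb, above Cdk5 at 40.8 ± 5.4 without overlap. Ehmt2 followed at 32.2 to 39.8 CPM per kb and overlapped with Cdk5 only in KO input.

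Sirt1 and Nfkb1 stood far below the other 4 genes in all groups. Sirt1 was at 2.12 to 3.09 CPM per kb and Nfkb1 at 1.05 to 3.28. In TRAP, Nfkb1 lay below Sirt1 without overlap in both genotypes, whereas in input the ranges of both genes overlapped. They rested on few reads, 35 to 87 per library for Sirt1 and 13 to 84 for Nfkb1, against 314 to 2766 for the other 4 genes.

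**Figure D1:**
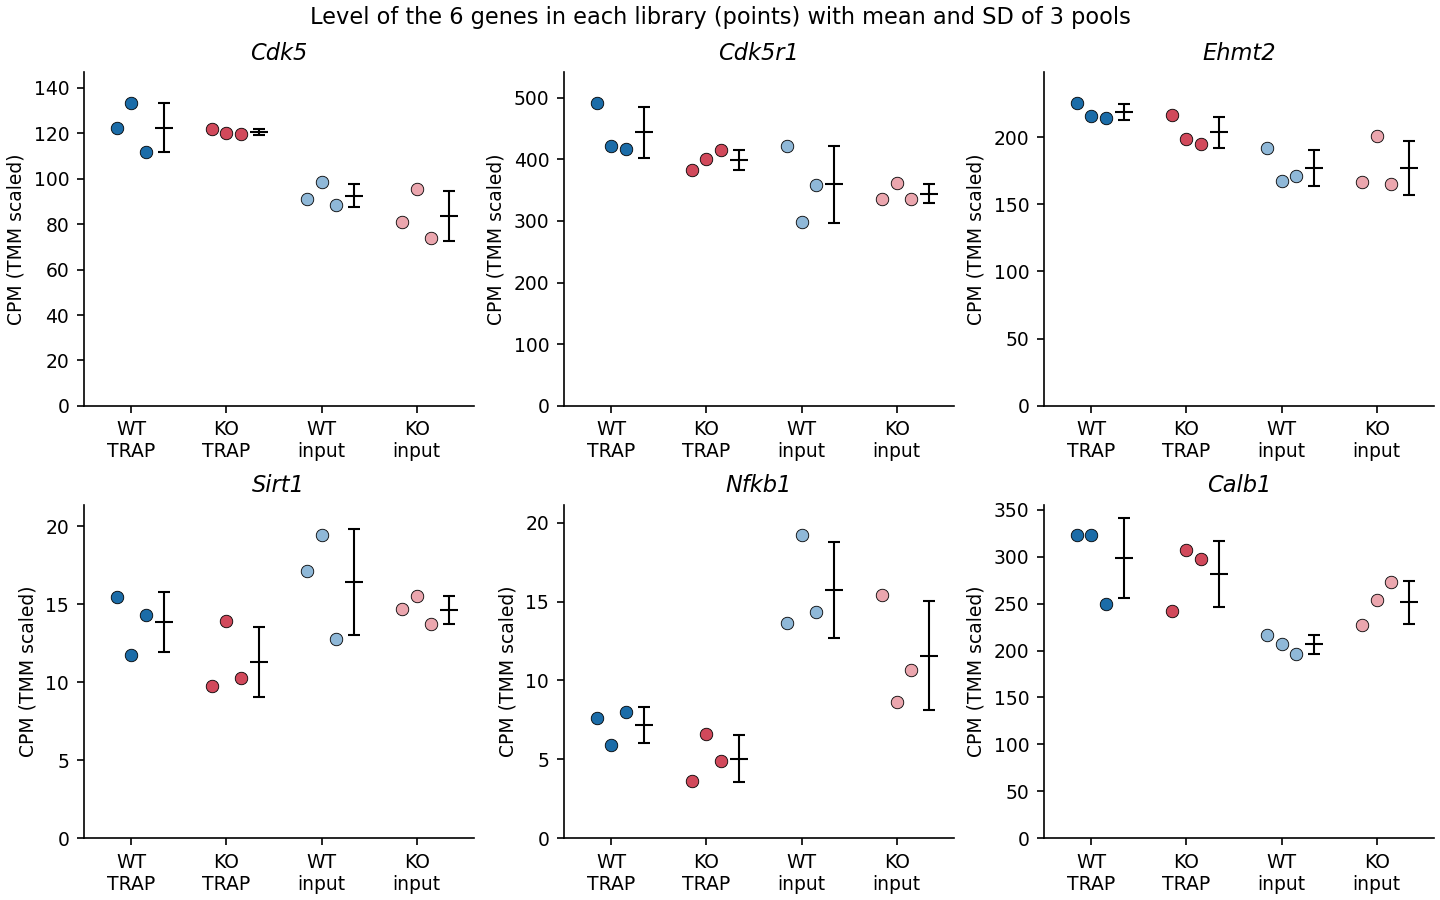
Level of each of the 6 genes (y axis, CPM after TMM scaling, from 0) in the 12 libraries, by group on the x axis. Points are libraries and the bars beside them the mean and SD of 3 pools; Cdk5r1 lies near 300 to 490 CPM, Nfkb1 under 20 CPM with lower TRAP than input libraries.

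The question of whether loss of FosB moved these genes in vHPC-NAc neurons was addressed by KO against WT in TRAP. None of the 6 genes passed the test (edgeR quasi-likelihood, adjusted p under 0.05), where 8 of 11727 genes tested did, 0.0682%. At an unadjusted p under 0.05 there were also 0 of the 6, and 709 of all genes tested, 6.05%, and DESeq2 called 0 of the 6 as well. All 6 ratios were below 0, between -0.50 and -0.02 on the log2 scale with a median of -0.13, where the median of all genes tested was -0.002. Of the 8 markers of glutamate neurons, 7 were also below 0 in this comparison, with a median of -0.13, and none passed. The part of these cells in the 6 ratios was not tested. Cdk5r1 was the only one of the 6 whose groups did not overlap, and 11.9% of all genes tested were in that state.

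In WT TRAP, Cdk5 was read at 122, 134 and 112 CPM, and in KO TRAP at 122, 120 and 120 CPM. The KO libraries lay within the range of the WT libraries. The Cdk5 ratio was -0.02 ± 0.11 (SE), with a 95% interval from -0.26 to 0.21, that is from 0.836-fold to 1.16-fold (adjusted p = 0.990, edgeR).

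Cdk5r1 was read at 492, 422 and 417 CPM in WT TRAP and at 382, 400 and 415 CPM in KO TRAP. All KO libraries lay below all WT libraries, but the highest KO and the lowest WT library were only 415 and 417 CPM. The ratio was -0.15 ± 0.09 with an interval from -0.34 to 0.03 (unadjusted p = 0.104, adjusted p = 0.864, edgeR), and the exact permutation p was 0.10, the smallest that 3 against 3 allow. Without WT pool 1, the highest library, the ratio was -0.07.

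Ehmt2 was read at 226, 216 and 214 CPM in WT TRAP and at 216, 199 and 195 CPM in KO TRAP. Both groups overlapped at 1 KO library. The ratio was -0.11 ± 0.10, with an interval from -0.31 to 0.10 (adjusted p = 0.923, edgeR).

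Sirt1 was read at 15.5, 11.8 and 14.3 CPM in WT TRAP and at 9.76, 13.9 and 10.3 CPM in KO TRAP, with overlap. Its ratio of -0.29 ± 0.30 had an interval from 0.530-fold to 1.26-fold (adjusted p = 0.933, edgeR). For Nfkb1, WT TRAP gave 7.65, 5.88 and 7.97 CPM and KO TRAP 3.63, 6.58 and 4.88 CPM, also with overlap. The Nfkb1 ratio of -0.50 ± 0.43 was the lowest of the 6, and its interval ran from 0.379-fold to 1.31-fold (adjusted p = 0.916, edgeR). With 1 pool left out, Sirt1 ran from -0.46 without KO pool 3 to -0.20 without KO pool 2, and Nfkb1 from -0.74 to -0.32 without the same pools. Both intervals are wide, and a difference within them was not detectable.

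Calb1 was read at 323, 323 and 250 CPM in WT TRAP and at 242, 307 and 297 CPM in KO TRAP. The groups overlapped, with the lowest library in KO pool 2. The ratio was -0.08 ± 0.11 with an interval from -0.32 to 0.15 (adjusted p = 0.949, edgeR). Without KO pool 2, the library with the high GABA neuron markers, the ratio was 0.02, and the part of that library's makeup in the value was not tested.

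**Figure D2:**
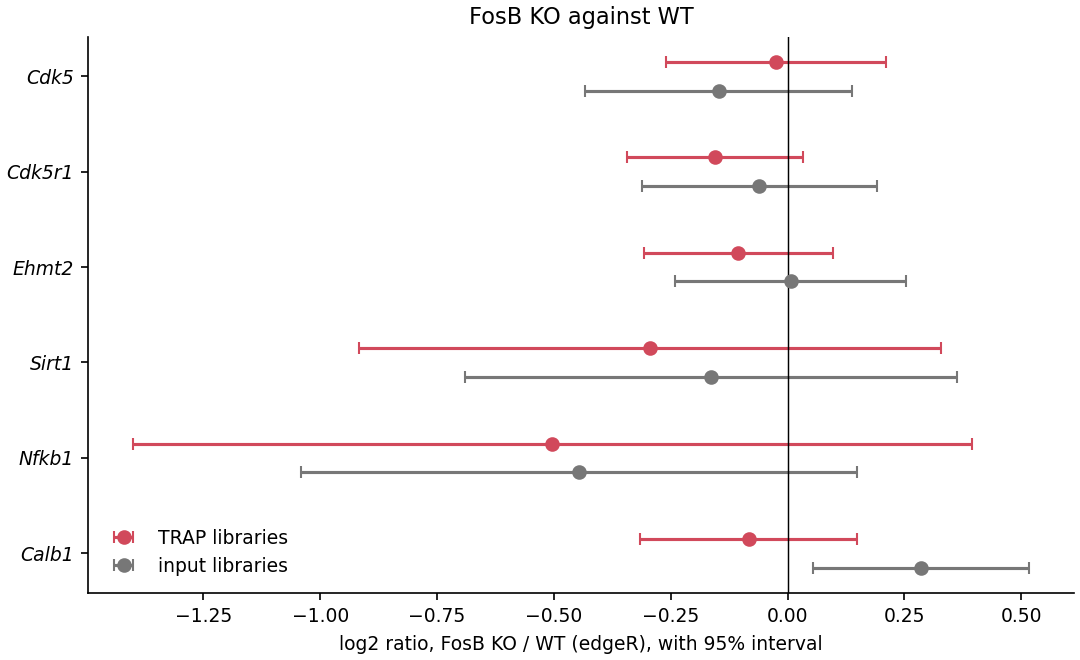
Log2 ratio of FosB KO to WT for the 6 genes (x axis; edgeR, with 95% interval) in TRAP libraries (red) and input libraries (grey), 3 pools per genotype. All intervals hold 0 except that of Calb1 in input, from 0.06 to 0.52.

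In input, which holds all cells of the punched vHPC tissue, none of the 6 genes passed the test, where 4 of 12816 genes did, 0.0312%. At an unadjusted p under 0.05 there was 1 of the 6, Calb1, and 371 of all genes tested, 2.89%, and DESeq2 also called 0 of the 6. Calb1 was also the one member whose groups did not overlap, a state that 8.37% of all genes tested were in. In WT input it was read at 217, 207 and 196 CPM and in KO input at 227, 254 and 273 CPM, so that every KO library lay above every WT library. The log2 ratio was 0.29 ± 0.11 (SE), a 1.22-fold difference with an interval from 1.04-fold to 1.43-fold. The unadjusted p was 0.0178, the adjusted p 0.9996 (edgeR) and the exact permutation p 0.10, the smallest possible. With 1 pool left out, the Calb1 ratio in input ran from 0.22 without KO pool 4 to 0.36 without KO pool 2.

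Dentate granule cells express Calb1 strongly. All 6 markers of these cells had ratios above 0 in input, from 0.03 (Stxbp6) to 1.46, with a median of 0.54, and none passed the test. Prox1, a transcription factor of these cells, had 28.7, 52.2 and 30.2 CPM in WT input and 36.9, 72.5 and 63.4 CPM in KO input (log2 ratio 0.64, unadjusted p = 0.0403, adjusted p = 0.9996, edgeR). Dsp, which encodes desmoplakin, had 3.77, 5.49 and 3.30 CPM in WT input and 8.76, 8.43 and 17.4 CPM in KO input (log2 ratio 1.46, unadjusted p = 0.00157, adjusted p = 0.920). For Dsp all KO libraries lay above all WT libraries, and for Prox1 the groups overlapped. The summed level of the 6 markers was 185 to 221 CPM in WT input and 197 to 273 CPM in KO input, with overlap. In TRAP it was 94.8 to 156 CPM in WT and 107 to 138 CPM in KO. Between KO and WT TRAP, 3 of the 5 markers tested had ratios above 0 and 2 below, with a median of 0.02. Over both genotypes, 4 of the 6 markers were lower in TRAP than in input, 66.7% beside 42.2% of all genes. These were Prox1 (-3.12), Glis3 (-3.21), C1ql2 (-1.65) and Stxbp6 (-0.97), while Pdzd2 (0.11) and Dsp (-0.75) did not pass. The sum in TRAP rested mostly on Pdzd2 and Stxbp6. Their means were 62.1 and 46.9 CPM in WT TRAP, where that of Prox1 was 4.86 CPM. Calb2, which encodes calretinin, had a log2 ratio of 0.47 in input (unadjusted p = 0.00425, adjusted p = 0.9996), while Tbr1, a transcription factor of projection neurons, had a ratio of -0.43 (unadjusted p = 0.0143, adjusted p = 0.9996). Of 12 calcium-binding genes tested in input, 3 had ratios above 0 and 9 below. Of 8 glutamate neuron markers, 2 were above 0 and 6 below in input, with a median of -0.095. None of either list passed. The part of dentate granule cells in the Calb1 value was not tested.

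**Figure D3:**
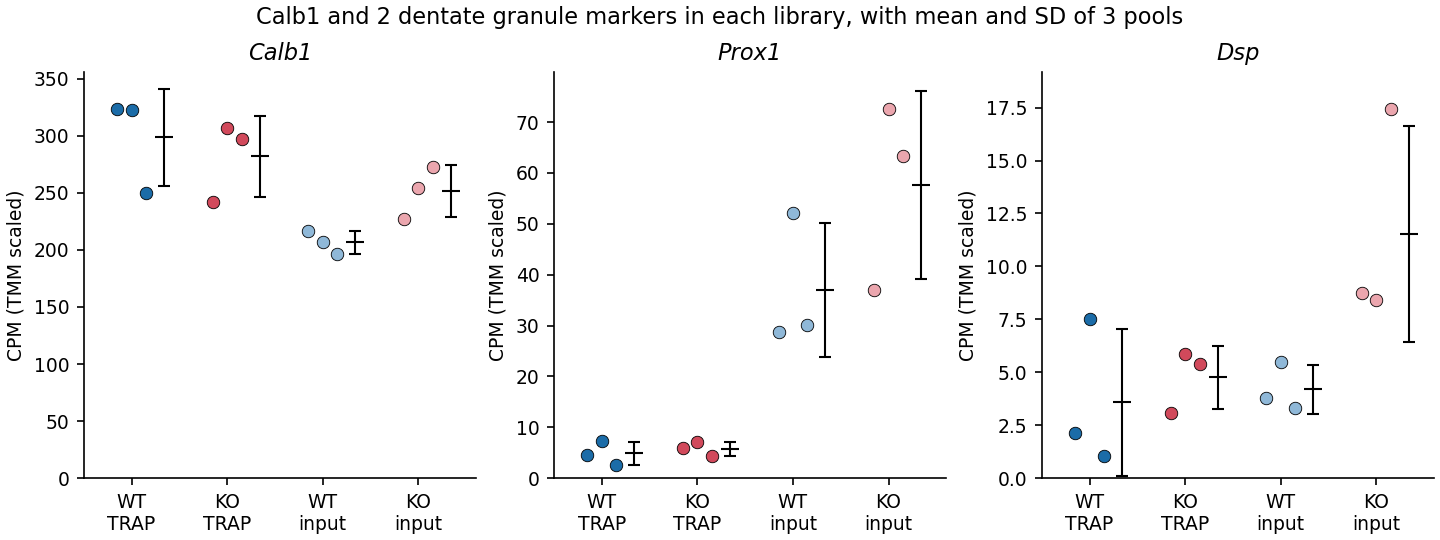
CPM (y axis, TMM scaled, from 0) of Calb1 and of the dentate granule markers Prox1 and Dsp in the 12 libraries, by group on the x axis, with points for libraries and bars for mean and SD of 3 pools. Calb1 and Dsp in KO input lie above WT input in every library, and Prox1 is under 8 CPM in all TRAP libraries.

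The other 5 genes showed input ratios between -0.45 and 0.01. Cdk5 was read at 91.1, 98.4 and 88.3 CPM in WT input and at 81.2, 95.6 and 73.8 CPM in KO input (ratio -0.15 ± 0.14), with overlap, and the ratio was -0.26 without KO pool 3 and -0.07 without KO pool 4. Cdk5r1 was read at 422, 298 and 359 CPM in WT and at 335, 362 and 336 CPM in KO, all within the WT range (-0.06 ± 0.12). This value rested on WT pool 1, without which it was 0.08. Ehmt2 was at 192, 167 and 171 CPM in WT and at 166, 201 and 165 CPM in KO (0.01 ± 0.12), with the highest and the lowest library both in KO. Sirt1 was at 17.1, 19.5 and 12.8 CPM in WT and at 14.7, 15.5 and 13.7 CPM in KO (-0.16 ± 0.25), from -0.32 without WT pool 3 to -0.02 without WT pool 2. Nfkb1 was at 13.6, 19.2 and 14.3 CPM in WT and at 15.4, 8.65 and 10.7 CPM in KO, with overlap, and its ratio of -0.45 ± 0.28 had an interval from 0.486-fold to 1.11-fold. Without WT pool 2 it was -0.27, and without KO pool 2 it was -0.70 (unadjusted p = 0.0436, edgeR).

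The same pools gave TRAP and input, so that the place of each gene in vHPC-NAc neurons relative to the tissue could be read within a pool. The pool ratios and sign-flip tests below do so, whereas the edgeR fit did not pair the libraries of a pool. Over both genotypes 5 of the 6 genes passed the test, 4 higher and 1 lower in TRAP, where 42.2% of 13214 genes tested passed. The median log2 ratio of TRAP to input over the 6 genes was 0.25, and over all genes tested -0.01. This comparison read the same TRAP and input libraries as those above.

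Over both genotypes Cdk5 was the most raised of the 6, at 0.47 ± 0.09 on the log2 scale or 1.38-fold (adjusted p = 9.32e-05, edgeR). Its ratio within a pool was 0.42, 0.44 and 0.34 in WT and 0.58, 0.33 and 0.69 in KO, above 0 in 6 of 6 pools (exact sign-flip permutation p = 0.0312, the smallest that 6 pools allow). Cdk5r1, its activator, was 1.20-fold higher in TRAP (0.26 ± 0.08, adjusted p = 0.00774), with ratios of 0.22, 0.50 and 0.22 in WT pools and 0.19, 0.14 and 0.30 in KO pools. In fits of 1 genotype alone, which hold fewer libraries, the Cdk5r1 call was lost (adjusted p = 0.0781 in WT and 0.105 in KO, edgeR). Kinase and activator thus were both higher in TRAP in every pool. The level of Cdk5r1 per kilobase was 1.55 to 1.99 times that of Cdk5 in TRAP libraries and 1.50 to 2.30 times in input libraries, with overlap.

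Ehmt2 was 1.19-fold higher in TRAP (0.25 ± 0.08, adjusted p = 0.00818, edgeR). Its pool ratios were 0.23, 0.37 and 0.32 in WT and 0.38, -0.01 and 0.24 in KO, above 0 in 5 of 6 pools (exact sign-flip permutation p = 0.0625). The Ehmt2 call was lost without KO pool 2 (adjusted p = 0.0584) and in KO libraries alone (adjusted p = 0.203). Sirt1, at -0.31 ± 0.19, did not pass (adjusted p = 0.202) and had pool ratios from -0.70 to 0.16, with 1 of 6 above 0. Without WT pool 2 the Sirt1 ratio was -0.18 and without WT pool 3 it was -0.39.

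Nfkb1 was the one member that was lower in TRAP, 2.24-fold on average (-1.16 ± 0.24, adjusted p = 0.000279, edgeR). Its pool ratios were -0.79, -1.63 and -0.81 in WT and -1.94, -0.37 and -1.05 in KO, below 0 in 6 of 6 pools (exact sign-flip permutation p = 0.0312). The spread between pools was the widest of the 6 genes. Beside it, the 8 microglia markers summed to 4.23 to 13.9 CPM in TRAP and 72.8 to 135 CPM in input, and the 8 astrocyte markers to 320 to 396 CPM and 1955 to 2397 CPM. The part of these cells in the Nfkb1 value was not tested.

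Calb1 was 1.27-fold higher in TRAP over both genotypes (0.35 ± 0.08, adjusted p = 0.00103, edgeR), above 0 in 6 of 6 pools. The pool ratios were 0.58, 0.64 and 0.35 in WT and 0.09, 0.27 and 0.12 in KO, so that every KO pool lay below every WT pool. Of all genes tested, 8.61% had pool ratios that did not overlap between genotypes, in either direction. Within WT the ratio was 0.53 ± 0.12 (adjusted p = 0.000904), and within KO it was 0.16 ± 0.11 (adjusted p = 0.325). The difference between genotypes, tested as an interaction, was -0.37 ± 0.16 with an interval from -0.70 to -0.03 (unadjusted p = 0.0320, adjusted p = 0.99992, edgeR; exact permutation p over pools 0.10, the smallest possible). Across genes the interaction passed for 1 of 13214, 0.00757%, and for 0 of the 6 genes, and 358 genes had an unadjusted p under 0.05. For the other 5 genes the interaction was between -0.13 and 0.12 and the unadjusted p between 0.471 and 0.910. With 1 pool left out, the interaction ran from -0.31 without WT pool 2 to -0.44 without WT pool 3. The mean Calb1 level was 299 ± 42 CPM (SD, n = 3) in WT TRAP and 282 ± 35 in KO TRAP, and 207 ± 10 in WT input and 251 ± 23 in KO input. The dentate markers of the input libraries are given above.

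**Figure D4:**
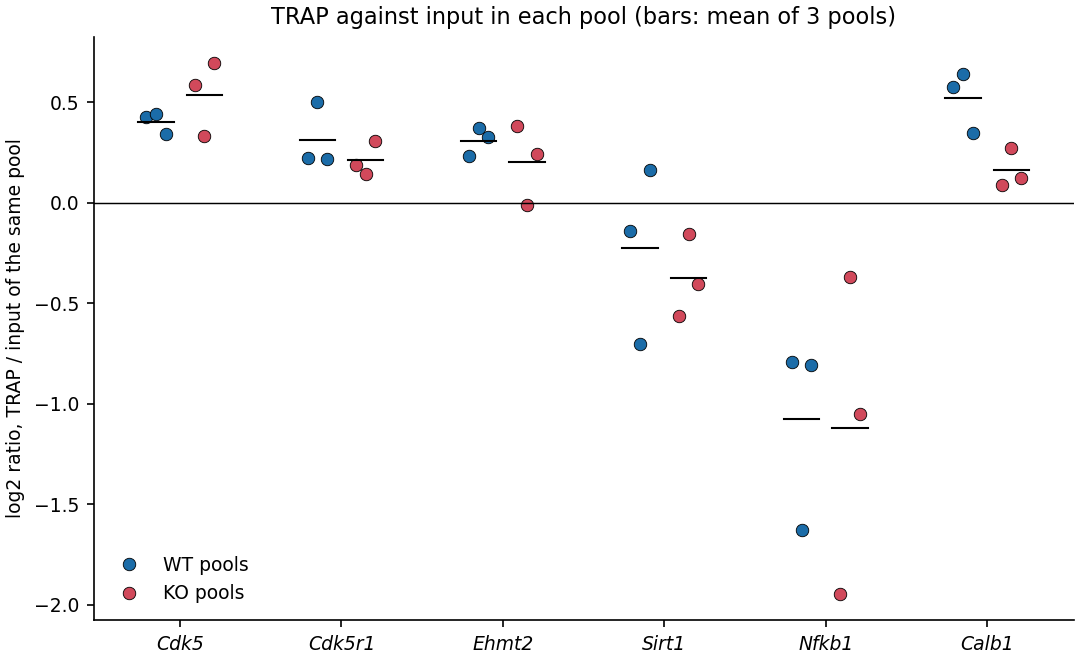
Log2 ratio of TRAP to input of the same pool (y axis) for the 6 genes, in 3 WT pools (blue) and 3 KO pools (red), with bars for the mean of 3 pools. Cdk5, Cdk5r1 and Calb1 lie above 0 in all pools, Nfkb1 below 0 in all pools, and the Calb1 ratios of KO pools lie below those of WT pools.

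Around each member, other genes of its pathway were read from lists. Of all genes tested in TRAP against input, 19.6% were higher and 22.5% lower. Of 18 partners of Cdk5, all were tested, and 10 were higher and 4 lower in TRAP than in input, with a median ratio of 0.29 on the log2 scale. That is 77.8% of the list, beside 42.2% of all genes. The higher genes included Syn1 (0.65), which encodes synapsin, Stx1a (0.74), which encodes a syntaxin of the release machinery, Pak1 (0.31), a kinase of the actin skeleton, and Mapt (0.30), which encodes tau, and also Cdk5r2, the gene of the activator p39 (0.34). The lower genes were Map1b (-0.56), of a microtubule protein, Cdk5rap2 (-1.88), of a centrosome protein, Cables1 (-0.97), of a Cdk-binding adaptor, and Capn2 (-0.39), of a calpain. Between KO and WT none of the 18 passed in TRAP or input. In TRAP, Map1b had a ratio of -0.19 (edgeR, unadjusted p = 0.0209, adjusted p = 0.767) and Stx1a of -0.29 (edgeR, unadjusted p = 0.0251, adjusted p = 0.784). The median of the 18 between KO and WT TRAP was -0.12.

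Of 18 genes around Ehmt2 that write, read or erase H3K9 methylation, or encode the partner deacetylases Hdac1 and Hdac2, 3 were higher and 3 lower in TRAP, and 12 did not pass, with a median of 0.05. The share called, 33.3%, was under that of all genes, 42.2%. The higher genes were the deacetylase Hdac2 (0.38) and the demethylases Kdm4b (0.31) and Kdm1a (0.23). The lower genes were Zfp644 (-0.64), of a zinc finger partner of G9a, Cbx5 (-0.35), of a heterochromatin protein, and the demethylase Kdm3b (-0.28). None passed between KO and WT. The heterochromatin gene Cbx3 in TRAP (0.31, unadjusted p = 0.0262, adjusted p = 0.784) and Setdb2 in input (0.81, unadjusted p = 0.0453, adjusted p = 0.9996) had unadjusted p under 0.05.

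Of the 16 sirtuins and NAD-related genes beside Sirt1, 15 were tested, and 3 were higher and 2 lower in TRAP, 33.3% of those tested beside 42.2% of all genes. Parp1, which consumes NAD (0.61), the nucleolar sirtuin Sirt7 (0.78) and the Sirt1 substrate Foxo1 (0.45) were higher, and the coactivator Ppargc1a (-0.61) and Sirt2 (-0.27), a cytoplasmic sirtuin, were lower. The Foxo1 ratio was 0.19 within WT (adjusted p = 0.437) and 0.71 within KO (adjusted p = 0.00245), with an interaction of 0.52 (unadjusted p = 0.0400, adjusted p = 0.99992, edgeR). The median of the list was 0.01. Between KO and WT none passed, with Foxo1 at 0.46 in TRAP (unadjusted p = 0.00875, adjusted p = 0.701).

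Of 17 genes of the NF-κB pathway beside Nfkb1, all were tested over the 12 libraries, and 1 was higher and 5 lower in TRAP, with a median of -0.06. The share called, 35.3%, was under the 42.2% of all genes. The lower genes included Chuk (-1.67), of the kinase IKKα, and Traf6 (-0.59) and Map3k7 (-0.53), of the signaling steps above the kinase. Rel, of another NF-κB subunit, was lower over both genotypes (-1.56) on 1 to 28 reads per library, with -2.73 within WT (adjusted p = 0.00561) and -0.39 within KO (adjusted p = 0.712) and an interaction of 2.34 (unadjusted p = 0.0244, adjusted p = 0.99992, edgeR). Tnfaip3 (0.52), which encodes the inhibitor A20, was higher. Between KO and WT none passed. Nfkbib, of an inhibitor that holds NF-κB in the cytoplasm, was at -0.47 in TRAP (unadjusted p = 0.0274, adjusted p = 0.784). The subunit genes Rela (-0.43, unadjusted p = 0.0404) and Relb (-1.11, unadjusted p = 0.00560) had ratios below 0 in input, both at an adjusted p of 0.9996.

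Of 14 other calcium-binding proteins of neurons, 12 were tested and 3 were higher in TRAP: Hpcal1 (0.53), Hpcal4 (0.51) and Necab2 (0.43). Pvalb, the parvalbumin of interneurons, was lower (-3.25). These are 33.3% of the genes tested, beside 42.2% of all genes. The median was 0.20. Between KO and WT none passed. Vsnl1 in TRAP (-0.31, unadjusted p = 0.00597, adjusted p = 0.594) and Ncald in input (-0.21, unadjusted p = 0.0474, adjusted p = 0.9996) had unadjusted p under 0.05, beside Calb2.

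**Figure D5:**
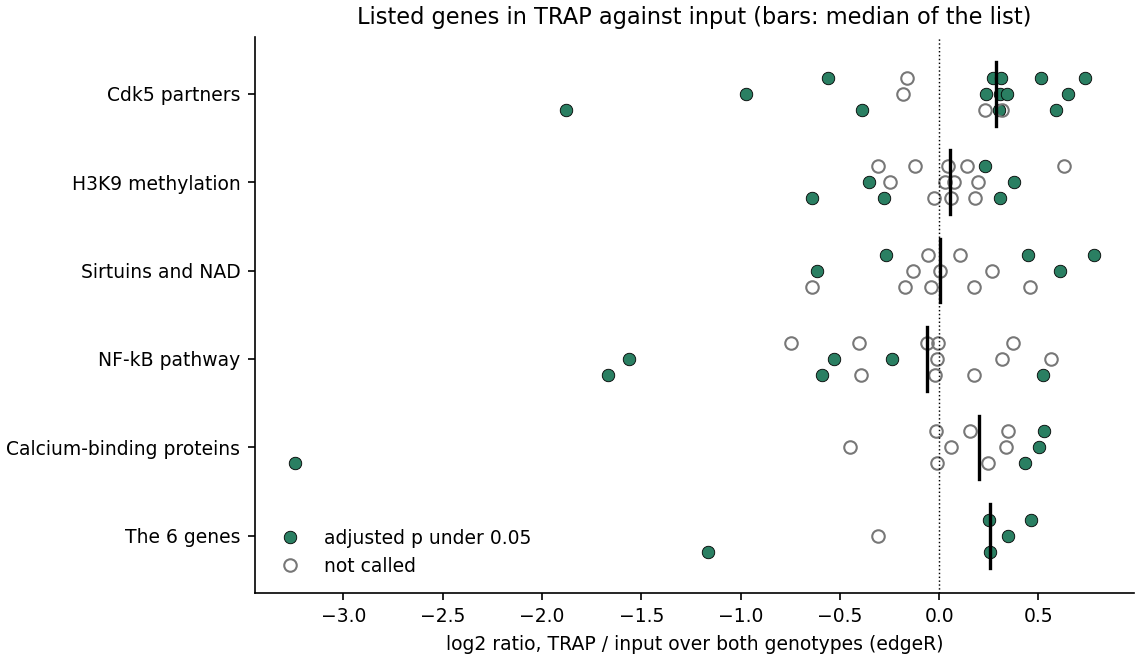
Log2 ratio of TRAP to input over both genotypes (x axis; edgeR, 12 libraries) for the genes tested in each list (rows), with filled points for an adjusted p under 0.05, open points for genes that did not pass and a bar at the median of the list. The Cdk5 partners have 10 filled points above 0 and 4 below, and the NF-κB pathway 1 above and 5 below.

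Of 4 other genes that are often named as targets of ΔFosB, Fos (0.73) and Camk2a (0.19) were higher in TRAP, and Gria2 (0.07) and Pdyn (-0.42) did not pass. Gria2, an AMPA receptor subunit, was read at 477, 433 and 448 CPM in KO TRAP and at 436, 368 and 360 CPM in WT TRAP, with overlap at 1 library. Its KO to WT ratio was 0.22 in TRAP (unadjusted p = 0.0271, adjusted p = 0.784, edgeR) and 0.09 in input. Fos (0.13) and Camk2a (-0.05), a calcium-dependent kinase, did not pass in TRAP. Pdyn, the prodynorphin precursor, had too few reads to be tested in TRAP, with 25.1 CPM in KO pool 2 and at most 2.44 CPM in the other 5 TRAP libraries.

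The genes whose levels ran most like each member over the 12 libraries were found by Pearson's r of log2(CPM + 0.5). For Cdk5 these were Sf3a2 (0.969), Mrpl43 (0.968) and Arf5 (0.961), and for Cdk5r1 they were Nudc (0.956), Cdv3 (0.951) and Kcnj4 (0.943). For Ehmt2 they were Cops7a (0.974), Chmp2a (0.965) and Mtap9 (0.965), and for Nfkb1 Psat1 (0.973), Gapvd1 (0.970) and Strbp (0.953). Calb1 ran most like Celf1 (0.905), Camk2a (0.891) and Csnk1g3 (0.887), and Sirt1 most like Gm13845 (0.880), 2310015A10Rik (0.875) and 4933432B09Rik (0.865), whose group means were 0.813 to 6.92 CPM. Among the members themselves, Ehmt2 was at r = 0.839 with Cdk5 and 0.832 with Cdk5r1, Sirt1 at 0.794 with Nfkb1, and Nfkb1 at -0.758 with Ehmt2 and -0.745 with Cdk5. The 12 points are TRAP and input libraries of 6 pools, so these values include the gap between TRAP and input and the pools they share.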

How the data were processed

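TRAP and input libraries of vHPC were made by the authors with a stranded total RNA kit. TopHat mapped the reads to mm9, HTSeq-count summed them over Gencode vM1 genes, and DESeq2 was named for differential expression. Tool versions and the strand setting are not given in the sources used here. The authors deposited counts, whole reads per gene, without normalization, for each library. The rows that name no gene were left out (20.6% to 27.1% of uniquely aligned reads without a feature, 2.11% to 2.56% ambiguous). A label without the word input was read as TRAP.

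The 6 genes and all lists were chosen with earlier results of these data known. The 145 list entries were matched by symbol, or for 1 by a synonym. Counts were tested with edgeR 4.0.16 in R 4.3.3 (filterByExpr, TMM, robust quasi-likelihood) with Benjamini-Hochberg adjustment over all genes tested: KO against WT in 6 TRAP and in 6 input libraries, and TRAP against input and its difference between genotypes in 12 libraries. A standard error is the size of the log2 ratio divided by the square root of F. Steps were tested on simulated data. Single genes were compared by two-sided exact permutation of log2(CPM + 0.5) with scipy 1.17.1. Replicates are pools of mice. Shared stretches came from minimap2 2.31. TRAP and input of a pool come from the same animals (correlations of deviations 0.053 to 0.099), whereas pools 2 and 3 of WT and KO share only a number. The main fits held no term for the pool. Genes named were the 6 members, Fosb, of each list up to 4 per direction with the smallest p in TRAP against input and those with unadjusted p under 0.05 between KO and WT, 4 other reported targets, the 3 most like each member, and overlapping genes. One gene that the rule names is not reported here. Cdk5r2 and Pdzd2 were named after their values were seen. Alternatives were RLE, total counts, no filter, a mean of at least 10 counts, no mitochondrial genes, no robust dispersion and DESeq2 1.42.0. Others were a block, all 12 libraries, 1 genotype, and leaving out each pool. The block was the pool for TRAP against input and its difference between genotypes, and the pool number for KO against WT.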

Additional observations from a re-analysis of the deposited data

Results flagged for a closer look

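The TRAP to input ratio of Ehmt2 in KO pool 3 was -0.0129 on the log2 scale, below the other 5 pools, which ran from 0.232 to 0.379. In a group of 6, chance flags about 1 in 20 such sets, and each of the 6 genes has such a set.

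The TRAP to input ratio of Calb1 differed between genotypes by -0.367 (KO minus WT, log2), at an unadjusted p of 0.0320 by the interaction in edgeR and an adjusted p of 0.99992. All 3 KO pools, at 0.088 to 0.272, lay below all 3 WT pools, at 0.347 to 0.641, a state that 8.61% of all genes tested were in, in either direction.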

How the results depend on the processing

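None of the 6 genes was called between KO and WT, or in the difference of enrichment, under any alternative that was run. Of the single log2 ratios, 13 changed sign, all of them between -0.09 and 0.37. Between KO and WT TRAP, Cdk5 was 0.0072 with total counts and ran from -0.083 to 0.046 (without WT pool 2) with 1 pool left out, and Calb1 from -0.19 to 0.018 (without KO pool 2). In input, Ehmt2 was -0.0081 with total counts, -0.091 without KO pool 3, -0.032 without WT pool 2, -0.018 without WT pool 3 and 0.076 without WT pool 1, and Cdk5r1 ran from -0.18 to 0.077 (without WT pool 1). With the replicate block on the pool number, Cdk5r1 in input was 0.094. In the difference of enrichment, Nfkb1 was at least -0.47, 0.37 without KO pool 2, 0.058 without WT pool 1 and 0.088 without WT pool 3, and Sirt1 ran from -0.37 to 0.052 (without WT pool 3).

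In TRAP against input, 5 of the 6 genes were called over both genotypes and 2 in KO libraries only. The call was lost for Cdk5r1 in WT libraries only (adjusted p = 0.0781, edgeR) and in KO only (0.105). It was also lost for Ehmt2 in KO only (0.203) and without KO pool 2, and for Calb1 in KO only (0.311). These fits hold fewer samples.

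Genes called between KO and WT TRAP were 8, against 41 without a filter and 18 by DESeq2, and 5 to 20 with 1 pool left out. In input they were 4, against 19 without a filter, 8 by DESeq2, 7 with all 12 libraries and 20 with the replicate block, and 1 to 5 with 1 pool left out. In TRAP against input they were 5572, against 3096 in WT only and 3626 in KO only. In the difference of enrichment it was 1, against 0 without robust dispersion and 0 to 1 with 1 pool left out. The cause of these shifts was not tested. The replicate block changed no call of the 6 genes. For KO against WT this block was on the pool number, which only pools 2 and 3 hold in both genotypes. WT pool 1 and KO pool 4 therefore did not inform those ratios. Sirt1 and Nfkb1 rested on 13 to 87 reads per library.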
